A study of Mus musculus with 6 samples.

Results

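The genes described here were 10 targets and feedback regulators of NF-κB, out of 31055 features in the count matrices: Icam1, Csf1, Cebpd, Birc3, Birc2, Nfkbia, Tnfaip3, Nfkbiz, Bcl3 and Relb. They were selected on their measured levels: the list of NF-κB genes was chosen by the lower values of Icam1, Cebpd, Birc3 and Csf1 in tumor epithelium, so the levels in epithelial cells are given as a description and were not tested. The tests concern the fibroblasts, endothelial cells and macrophages of the same libraries.

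NF-κB is a family of transcription factors that inhibitor proteins of the IκB family hold in the cytoplasm until a signal, such as an inflammatory cytokine, has the inhibitor degraded. The freed factor then drives genes for adhesion molecules, cytokines, growth factors and survival proteins, and also drives genes for its own inhibitors, which makes the response end itself. In the mammary gland the pathway takes part in the development of the ducts and lobules as well as in inflammation.

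All mice were females of the C3Tag model, which carries the SV40 large T antigen as a transgene under a C3(1) promoter and so makes T antigen in mammary epithelium; control mice without the transgene were not analysed here. The Prepuberty libraries came from whole mammary glands at 5 weeks of age, the DCIS libraries from whole glands at 14 weeks and the Tumor libraries from palpable tumors of mice over 18 weeks old, with 2 libraries in each state. Age, tissue and state therefore change together and cannot be told apart.

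Each library was a droplet-based single-cell RNA library with unique molecular identifiers (UMIs), which count captured transcript ends. After filtering, 2548 to 4306 cells per library were kept, 21537 in all, with a median of 6541 to 13631.5 UMIs per cell. Clusters were named from marker genes, and the UMIs of all cells of a class in a library were summed. The epithelial-like class held 146 to 2830 cells per library, the fibroblast-like class 254 to 2106, the endothelial-like class 35 to 702 and the macrophage-like class 88 to 423. All 8 endothelial markers were detected in every endothelial-like sum. Cells of 3 clusters without a name entered no class. They made up 9.57% and 19.0% of the cells of the Tumor libraries, where 60.4% and 46.0% of them held a T antigen UMI, against 0.422% to 2.48% of the cells of the gland libraries. Among fibroblast-like cells of the Tumor libraries, 30.7% and 45.1% held a T antigen UMI, against at most 0.621% in the other libraries, so this class was also examined without such cells; in epithelial-like cells the share was 2.05% to 27.8% in the glands and 72.4% and 56.6% in the tumors. Levels are given as CPM, the UMIs of a gene per 1000000 UMIs of its class, scaled by the trimmed mean of M values (TMM) unless stated otherwise, and log2 fold changes are given with their standard error (SE). Fewer transcripts per cell and fewer cells that make the transcript cannot be told apart in such sums.

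RefSeq promoter sequence was at hand for 7 of the 10 genes. Cebpd, Nfkbiz and Relb had no entry. The κB consensus searched for was GGGRNNYYCC, with R a purine, Y a pyrimidine and N any base. In the 250 bases before the start, 3 of the 7 genes held a full match on either strand. So did 8.2% of the 27025 genes in the table. The promoters of Csf1, Nfkbia and Tnfaip3 are shown because they hold these matches, in capitals. That of Icam1 is shown because its level differed most between the states in epithelium and it holds no full match. Sequences run 5′ to 3′ on the strand of the gene, build GRCm38.p6, and end just before the start.
Icam1, chr9:21015690-21015939, plus strand: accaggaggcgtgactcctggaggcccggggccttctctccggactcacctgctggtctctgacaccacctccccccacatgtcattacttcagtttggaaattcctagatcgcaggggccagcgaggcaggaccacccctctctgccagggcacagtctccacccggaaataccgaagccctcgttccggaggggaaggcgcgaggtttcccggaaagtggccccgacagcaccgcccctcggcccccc
Csf1, chr3:107760470-107760719, minus strand: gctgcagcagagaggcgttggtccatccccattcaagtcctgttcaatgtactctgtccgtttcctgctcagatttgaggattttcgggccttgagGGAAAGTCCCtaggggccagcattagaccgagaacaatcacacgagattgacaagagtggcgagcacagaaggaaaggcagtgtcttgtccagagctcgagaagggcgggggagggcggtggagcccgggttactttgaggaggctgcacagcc
Nfkbia, chr12:55492648-55492897, minus strand: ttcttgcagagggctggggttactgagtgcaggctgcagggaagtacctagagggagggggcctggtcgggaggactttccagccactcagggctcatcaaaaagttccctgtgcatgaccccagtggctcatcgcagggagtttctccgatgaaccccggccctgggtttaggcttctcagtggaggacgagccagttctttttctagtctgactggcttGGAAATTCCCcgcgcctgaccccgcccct
Tnfaip3, chr10:19015411-19015660, minus strand: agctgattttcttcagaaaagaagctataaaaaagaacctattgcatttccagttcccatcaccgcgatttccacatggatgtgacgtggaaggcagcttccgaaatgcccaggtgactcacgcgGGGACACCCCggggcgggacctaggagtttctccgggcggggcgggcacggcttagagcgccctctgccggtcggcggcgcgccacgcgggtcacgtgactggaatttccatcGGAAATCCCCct
The Csf1 match lay 154 to 145 bases before the start, the Nfkbia match 29 to 20 bases before it, and the Tnfaip3 matches 125 to 116 and 12 to 3 bases before it. The Icam1 window holds TGGAAATTCC, which differs from the consensus in its first base. Such near matches were not counted in any window. A match describes the letters of the window and was not tested for binding. The absence of one describes only this consensus in these 250 bases.

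In epithelial-like cells all 10 genes were lower in both Tumor libraries than in both DCIS libraries, and 9 were lower than in both Prepuberty libraries. These counts follow from the choice of the genes; of the 13367 genes measured in this class, 27.0% were lower without overlap in Tumor than in DCIS and 26.3% lower than in Prepuberty. The median log2 fold change of the 10 genes was -1.99 for Tumor against DCIS and -1.47 for Tumor against Prepuberty, where all genes had medians of 0.08 and 0.09. Marker sums of this class moved as well. The 7 epithelial markers, all detected, summed to 7014 and 3579 CPM in Tumor against 7897 to 12484 CPM in the glands, and the 8 myoepithelial markers, all detected in Tumor, to 1417 and 1939 CPM against 389 to 1220 CPM. The 5 erythroid markers, all detected in Tumor, summed to 32.0 and 129.7 CPM against at most 7.48 CPM. Their part in the epithelial levels was not tested.

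Icam1 (ENSMUSG00000037405, chromosome 9, 21015985 to 21028817, plus strand), the cell-surface adhesion molecule that leukocyte integrins bind, was at 49.4 and 76.3 CPM in the Prepuberty epithelium, 204 and 119.6 CPM in DCIS, and 5.76 and 10.1 CPM in Tumor. The 3 states did not overlap, with DCIS highest and Tumor lowest, and the log2 fold change of Tumor against DCIS was -4.35 (SE 0.47), the largest fall of the 10 genes. Csf1 (ENSMUSG00000014599, chromosome 3, 107741048 to 107760469, minus strand), the growth factor that macrophages need for survival, followed the same order, with 28.9 and 35.4 CPM in Prepuberty, 68.3 and 61.7 CPM in DCIS and 10.5 and 14.7 CPM in Tumor. Its log2 fold change of Tumor against DCIS was -2.36 (SE 0.31).

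Cebpd (ENSMUSG00000071637, chromosome 16, 15887286 to 15891031, plus strand) encodes the transcription factor C/EBPδ, an early responder to cytokines. Its epithelial level was 361 and 509 CPM in Prepuberty, 886 and 758 CPM in DCIS, and 190.2 and 83.9 CPM in Tumor, again highest in DCIS and lowest in Tumor without overlap. The log2 fold change of Tumor against DCIS was -2.58 (SE 0.45).

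Birc3 and Birc2 encode the inhibitor of apoptosis proteins cIAP2 and cIAP1, ubiquitin ligases of the tumor necrosis factor receptor complex. They are neighboring, similar genes on chromosome 9 (Birc3, ENSMUSG00000032000, 7848699 to 7873186; Birc2, ENSMUSG00000057367, 7818227 to 7837064; both minus strand), so reads from shared sequence could be split between them or lost. Birc3 was at 32.8 and 36.7 CPM in Prepuberty, 24.6 and 30.2 CPM in DCIS and 3.50 and 7.47 CPM in Tumor epithelium. Birc2 was at 18.9 and 32.5 CPM, 31.3 and 26.5 CPM, and 3.61 and 11.3 CPM in the same order. Unlike Icam1 and Csf1, neither gene was higher in DCIS than in Prepuberty in all libraries, and for both the Tumor libraries lay below the other 4.

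The feedback regulators hold NF-κB back or shape its output in the nucleus. Nfkbia (ENSMUSG00000021025, chromosome 12, 55489410 to 55492647, minus strand), which encodes the inhibitor IκBα, was at 789 and 1178 CPM in Prepuberty, 1504 and 1657 CPM in DCIS and 663 and 115 CPM in Tumor epithelium. The Tumor libraries were below the others, but they lay further apart from each other than the Prepuberty or the DCIS libraries did. Tnfaip3 (ENSMUSG00000019850, chromosome 10, 19000910 to 19015657, minus strand), which encodes the ubiquitin-editing inhibitor A20, was at 11.9 and 18.8 CPM, 14.6 and 21.5 CPM, and 7.09 and 2.84 CPM.

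Nfkbiz (ENSMUSG00000035356, chromosome 16, 55811375 to 55838899, minus strand) encodes the nuclear co-regulator IκBζ and was the member that was not below Prepuberty in Tumor. Its epithelial level was 37.4 and 48.8 CPM in Prepuberty, 123 and 81.1 CPM in DCIS and 59.3 and 38.5 CPM in Tumor. Bcl3 (ENSMUSG00000053175, chromosome 7, 19808462 to 19822770, minus strand), a nuclear IκB protein, and Relb (ENSMUSG00000002983, chromosome 7, 19606217 to 19629438, minus strand), the subunit of the alternative NF-κB pathway, had the remaining falls, with log2 fold changes of Tumor against DCIS of -1.23 (SE 0.27) and -1.35 (SE 0.33).

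**Figure D1:**
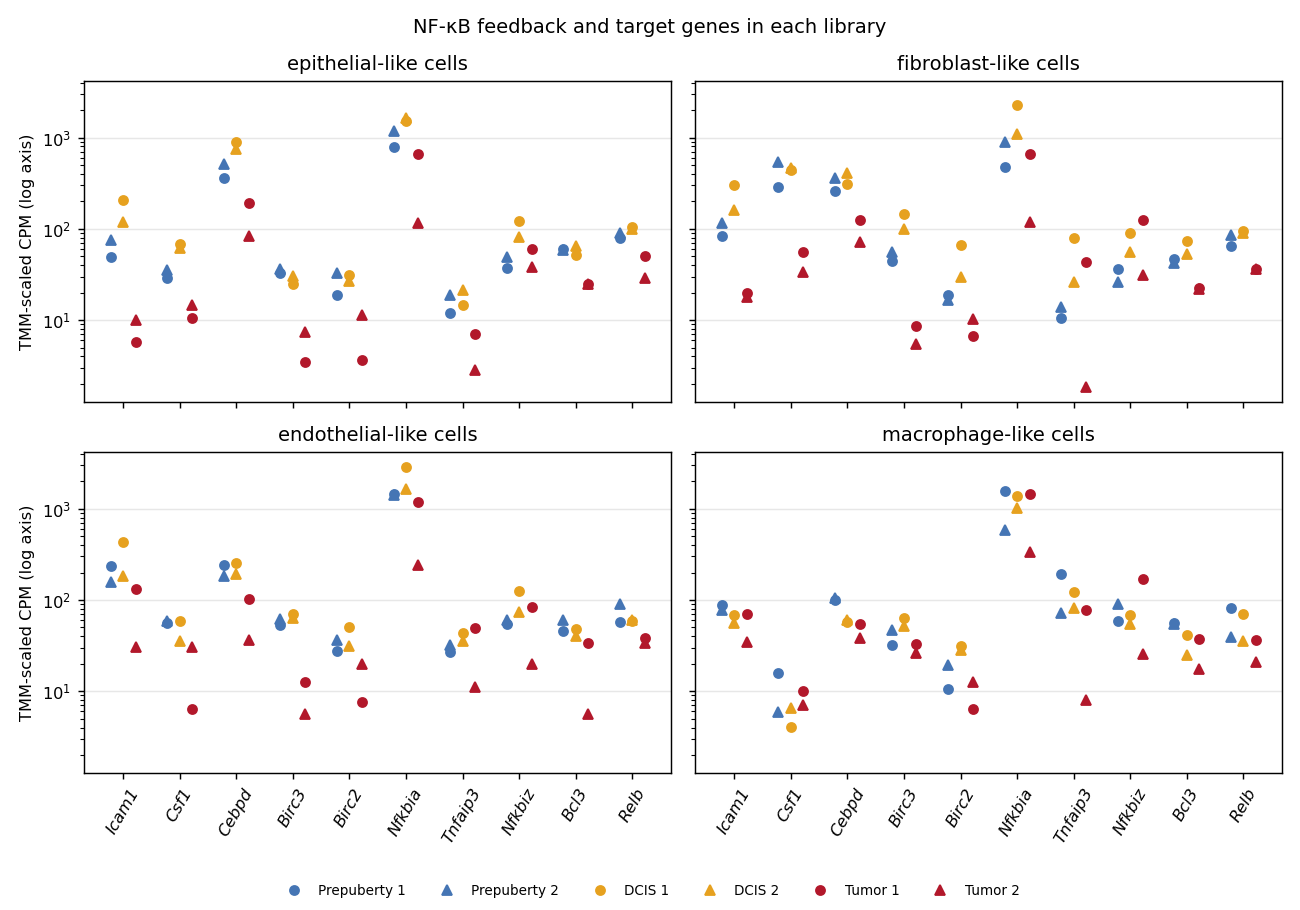
Level of the 10 genes in each library (TMM-scaled CPM, log axis), with 1 panel for each cell class. Color gives the state and marker shape the library. In epithelial-like cells the Tumor libraries lie below the DCIS libraries for all 10 genes, whereas in macrophage-like cells Icam1, Nfkbia, Bcl3, Nfkbiz and Relb overlap between Tumor and DCIS.

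The fall in Tumor was present within the clusters of the epithelial-like class for most of the 10 genes. The epithelial-like class consisted of 6 clusters. Cluster 1 was cycling, cluster 7 secretory-progenitor-like and cluster 12 hormone-sensing-like. Clusters 2, 3 and 14 had too few markers for a name and are called by their leading genes, Apoe in cluster 2, Ankrd1 and Ccl20 in cluster 3 and the heat-shock gene Hspa1a in cluster 14. Cluster levels are CPM without TMM scaling, clusters with fewer than 10 cells in a library have no value there, and the clusters were built from the same cells, so these values are a description. The make-up of the class differed between the states: cluster 2 held 4.69% and 6.43% of its cells in DCIS against 33.3% and 27.2% in Tumor, the hormone-sensing-like cluster 10.0% and 30.3% against 0.212% and 2.99%, and cluster 14 15.4% and 13.1% against 4.10% and 3.06%. The part of these shares in the levels of the whole class was not tested.

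Icam1 was lower in Tumor than in DCIS without overlap in all 6 clusters, and the mean DCIS level was 3.57 to 27.7 times the mean Tumor level. In cluster 3, where the DCIS level was highest, Icam1 was at 52.9 and 63.9 CPM in Prepuberty, 319 and 215 CPM in DCIS, and 6.98 and 12.3 CPM in Tumor. In the hormone-sensing-like cluster it was at 50.0 and 115 CPM in Prepuberty, 118 and 51.0 CPM in DCIS, and 23.6 CPM in Tumor 2, with no value for Tumor 1. Cluster 3 thus had the widest difference and the hormone-sensing-like cluster the narrowest.

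Cebpd, Birc3, Tnfaip3, Relb and Bcl3 were also lower without overlap in the 6 clusters, as were 2.14% of all genes tested in the class, whereas Csf1, Nfkbia and Birc2 were lower without overlap in 5 and Nfkbiz in 4. Within single clusters 10.8% to 22.7% of all genes were lower without overlap, the highest share in the hormone-sensing-like cluster. There the Tumor value of every gene rests on Tumor 2 alone, on 41 cells, with 3 UMIs of Birc3, 1 of Tnfaip3 and 1 of Csf1. These counts follow in part from the choice of the genes. The exceptions lay in the secretory-progenitor-like cluster for Csf1 (42.5 and 26.7 CPM in DCIS, 12.7 and 28.5 CPM in Tumor) and in cluster 14 for Nfkbia (1042 and 1445 CPM in DCIS, 1528 and 96.2 CPM in Tumor). Birc2 was higher in Tumor 2 than in DCIS in the hormone-sensing-like cluster, at 31.5 CPM against 22.1 and 21.7 CPM. Csf1 was among the 10 genes that led cluster 3, where it was at 119.9 and 121 CPM in DCIS against 20.3 and 36.0 CPM in Tumor.

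In 1 of the myoepithelial-like clusters, Nfkbiz had its highest levels in Tumor. Myoepithelial cells contract to expel milk, and those with basal keratins (cluster 9) had Icam1 at 98.6 and 119 CPM in Prepuberty, 121 and 84.8 CPM in DCIS, and 6.35 and 35.4 CPM in Tumor. Nfkbiz in these cells was at 5.48 and 15.4 CPM in Prepuberty, 21.7 and 19.5 CPM in DCIS, and 85.7 and 35.4 CPM in Tumor, the Tumor values resting on 27 and 22 UMIs. In the cluster with smooth-muscle genes but without basal keratins (cluster 15) it was at 72.4 and 56.1 CPM in Prepuberty and 138 and 93.0 CPM in DCIS, and the Tumor libraries had too few cells for a value. Of all myoepithelial-like cells, 41.7% and 44.3% held a T antigen UMI in the Tumor libraries, against at most 0.442% elsewhere.

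**Figure D2:**
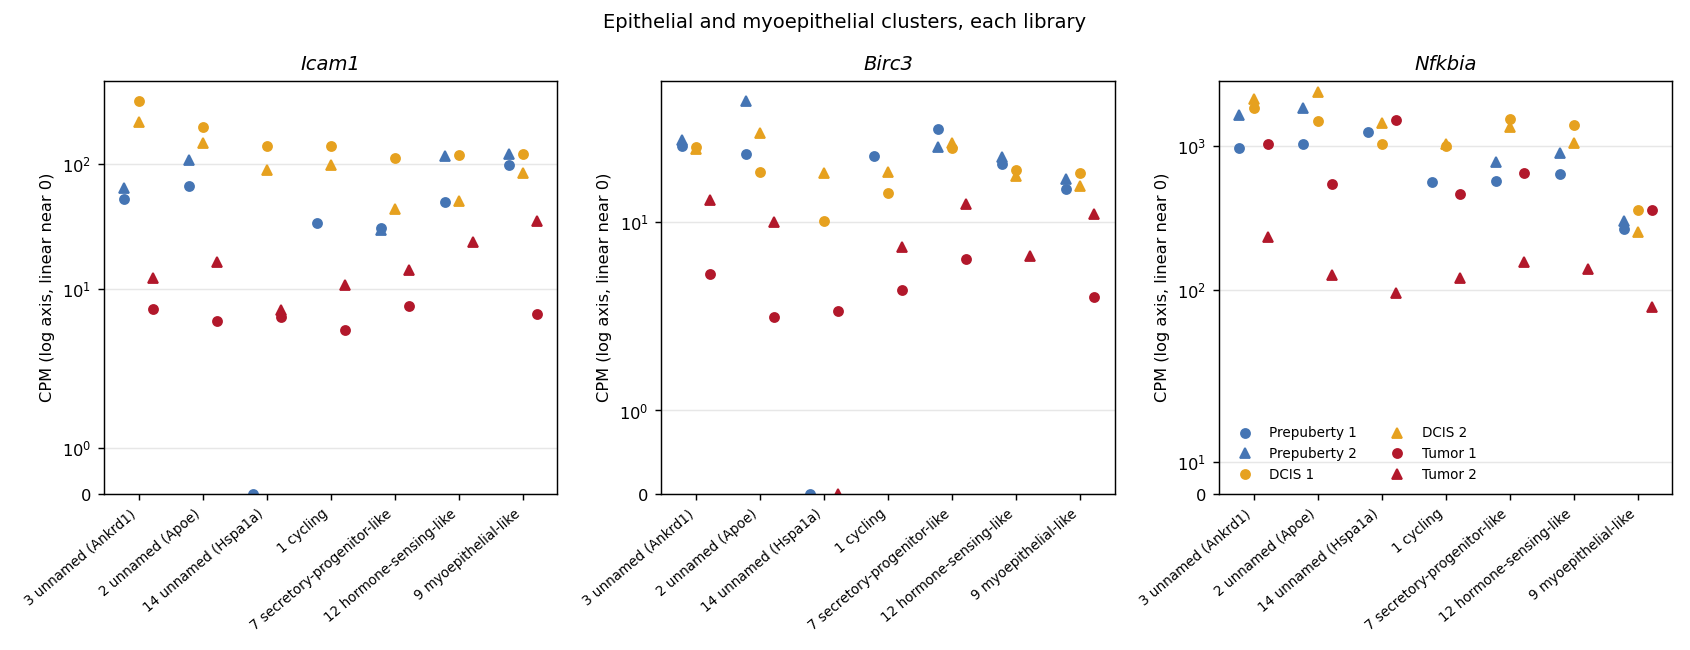
Icam1, Birc3 and Nfkbia in the 6 epithelial clusters and in the myoepithelial-like cluster (CPM without TMM scaling, on an axis that is logarithmic but linear near 0). Each point is 1 library with at least 10 cells in the cluster, and color gives the state. For Icam1 and Birc3 the red Tumor points lie below the DCIS points in every cluster, whereas for Nfkbia the Tumor 1 points lie near the DCIS points in cluster 14 and in the myoepithelial-like cluster.

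Fibroblasts make the collagen-rich matrix around the ducts. Of the fibroblast-like cells of the Tumor libraries, 30.7% and 45.1% held a T antigen UMI. The levels of this class therefore cannot be read as levels outside the tumor cells. In fibroblast-like cells 7 of the 10 genes fell in Tumor against DCIS, where 5.59% of the 12156 genes tested fell. None rose, where 7.96% did. The median log2 fold change of the 10 genes was -1.99, against 0.13 for all genes. The 7 were Icam1, Csf1, Cebpd, both inhibitor of apoptosis genes, Relb and Bcl3.

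Icam1 was at 82.4 and 116 CPM in Prepuberty fibroblasts, 301 and 161 CPM in DCIS, and 19.7 and 18.1 CPM in Tumor. The states did not overlap, and the log2 fold change of Tumor against DCIS was -3.61 (SE 0.44, adjusted p 0.0082). Birc3 was at 44.2 and 56.3 CPM in Prepuberty, 146 and 99.8 CPM in DCIS, and 8.60 and 5.49 CPM in Tumor, again without overlap. Its fall of 4.14 on the log2 scale (SE 0.43, adjusted p 0.00747) was the largest among the 10 genes in this class.

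Csf1 was at 289 and 546 CPM in Prepuberty, 446 and 468 CPM in DCIS, and 55.8 and 33.9 CPM in Tumor fibroblasts. DCIS and Prepuberty overlapped and Tumor lay below both (log2 fold change against DCIS -3.35, SE 0.46, adjusted p 0.00968). Birc2 fell by 2.46 (SE 0.47, adjusted p 0.0200), Cebpd by 1.88 (SE 0.41, adjusted p 0.0269), Bcl3 by 1.51 (SE 0.33, adjusted p 0.0270) and Relb by 1.34 (SE 0.32, adjusted p 0.0338) on the log2 scale.

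The remaining feedback genes did not pass the test in fibroblasts. Nfkbia was at 479 and 891 CPM in Prepuberty, 2299.8 and 1083 CPM in DCIS, and 668 and 119 CPM in Tumor. The Tumor libraries lay below DCIS but spanned the level of Prepuberty 1 (log2 fold change against DCIS -2.10, SE 0.80, adjusted p 0.112). Tnfaip3 was at 78.6 and 26.3 CPM in DCIS against 43.6 and 1.83 CPM in Tumor (adjusted p 0.474), and Nfkbiz at 89.5 and 55.1 CPM in DCIS and 125 and 31.1 CPM in Tumor (adjusted p 0.916), both with overlap.

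Against Prepuberty, 4 of the 10 genes fell in Tumor fibroblasts, where 2.58% of genes tested fell, and none rose, where 6.14% did. They were Csf1 (log2 fold change -3.22, SE 0.46), Birc3 (-2.85, SE 0.41), Icam1 (-2.39, SE 0.42) and Cebpd (-1.67, SE 0.40), with adjusted p from 0.0101 to 0.0442.

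The fibroblast counts, of the 10 genes and of all genes, changed with single libraries and with the clustering. Against DCIS, 3 of the 10 genes passed without DCIS 1 (201 of all genes, against 1647 with every library), 2 without DCIS 2 (28 of all genes) and 3 without Tumor 2 (521). With classes from clusters made without integration 4 passed (545 of all genes), and Icam1 and Birc3 passed in all 15 alternatives. Against Prepuberty, where 1060 of all genes passed with every library, 2 of the 10 passed without Prepuberty 1 (231 of all genes), 0 without Prepuberty 2 (58), 2 without Tumor 2 (438) and 0 without integration (292). With cells that held a T antigen UMI left out, 7 genes passed against DCIS and 3 against Prepuberty (1300 and 845 of all genes). A cell without such a UMI can still make T antigen. Even among epithelial-like cells of the Tumor libraries only 72.4% and 56.6% held one. This setting therefore cannot show that the falls lay outside T antigen cells. The 8 myoepithelial markers summed to 1652 and 287 CPM in Tumor fibroblasts against 34.2 to 95.8 CPM in the other libraries, with 6 of the 8 detected in each Tumor library, and the 7 epithelial markers, all detected, to 480 and 95.8 CPM against 15.7 to 87.2 CPM. Their part in the result was not tested.

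Endothelial-like cells line the vessels and use ICAM-1 to hold passing leukocytes. In Tumor against DCIS 3 of the 10 genes fell in them, where 6.23% of the 10468 genes tested fell, and none rose, where 6.98% did. The median log2 fold change was -1.62, against -0.02 for all genes, and 8 of the 10 genes were lower in both Tumor libraries than in both DCIS libraries, as were 30.5% of all genes.

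Birc3 was at 53.6 and 61.6 CPM in Prepuberty, 70.7 and 63.9 CPM in DCIS, and 12.6 and 5.61 CPM in Tumor endothelium. The Tumor libraries lay below the other 4, with 10 and 2 UMIs, and the log2 fold change against DCIS was -2.71 (SE 0.37, adjusted p 0.00446). Cebpd fell by 1.61 (SE 0.43, adjusted p 0.0407), from 256 and 193 CPM in DCIS to 102 and 36.5 CPM. This fall was absent with classes made without integration, where the log2 fold change was -0.01, and it was -2.69 to -1.14 with single libraries left out. Birc2 fell by 1.79 (SE 0.50, adjusted p 0.0475), from 51.1 and 31.5 CPM to 7.58 and 19.6 CPM, with 6 and 7 UMIs in Tumor. The Birc2 fall did not pass in most of the 14 alternatives run for it. Its log2 fold change in them was -2.44 to -1.04.

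In this class Icam1 was at 235 and 158 CPM in Prepuberty, 428 and 185 CPM in DCIS, and 131 and 30.9 CPM in Tumor. Tumor was below DCIS without overlap, but the fall of 1.83 on the log2 scale did not pass (SE 0.60, adjusted p 0.0796). Nfkbia was at 2882 and 1629 CPM in DCIS against 1178 and 241 CPM in Tumor (adjusted p 0.117), and Csf1 at 59.1 and 35.5 CPM in DCIS and 6.32 and 30.9 CPM in Tumor (adjusted p 0.0948). Tumor lay below DCIS for both.

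Against Prepuberty, Birc3 (log2 fold change -2.49, SE 0.36, adjusted p 0.00504) and Cebpd (-1.55, SE 0.42, adjusted p 0.0492) fell in the Tumor endothelium, where 4.78% of genes tested fell and 6.94% rose. The Tumor sums rested on 79 and 35 cells. Against DCIS the count of 3, beside 1383 of all genes, became 1 without DCIS 1 (423 of all genes) or without DCIS 2 (527), 6 without Tumor 1 (1042) and 0 with classes made without integration (65), in which 10 and 17 Tumor cells remained. Against Prepuberty the count of 2, beside 1226 of all genes, became 1 without DCIS 1 (974), DCIS 2 (983), Prepuberty 1 (675) or Prepuberty 2 (553), 4 without Tumor 1 (824) and 0 without integration (59). For Cebpd the log2 fold change against Prepuberty was -0.017 without integration, and it passed in 5 of 15 alternatives. Birc3 passed in 14 of 15, the exception being the classes without integration (adjusted p 0.120), and its log2 fold change was -3.42 to -2.20 with single libraries left out.

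Markers of other cells were also present in the endothelial sums. The 9 macrophage markers summed to 35.8 to 131 CPM in the glands against 44.2 and 393 CPM in Tumor, with 7 and 6 of them detected in Tumor. The 8 fibroblast markers summed to 70.7 and 85.4 CPM in DCIS against 317 and 222 CPM in Tumor and 349 and 270.0 CPM in Prepuberty, with 8 and 5 of them detected in Tumor. The 5 erythroid markers summed to 43.1 to 1074 CPM in the glands and to 1.26 and 5.61 CPM in Tumor, with 1 detected in each Tumor library. The 5 adipocyte markers summed to 4.45 to 86.2 CPM in the glands, and all were at 0 in Tumor. Their part in the endothelial values was not tested.

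**Figure D3:**
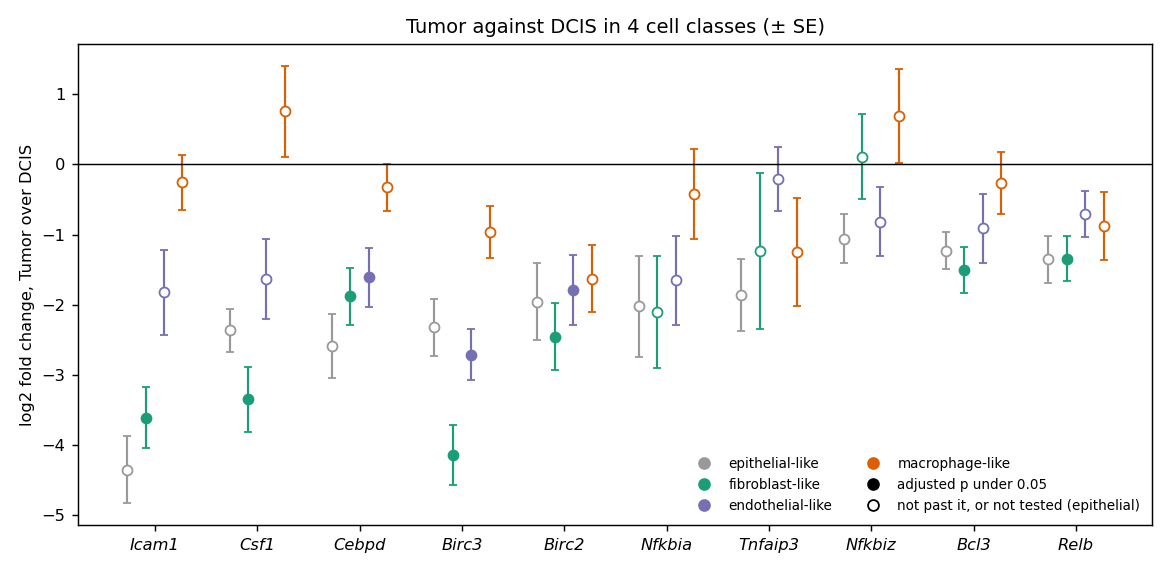
Log2 fold change of Tumor over DCIS for each gene in the 4 cell classes, with bars of 1 SE. Filled points passed an adjusted p of 0.05; open points did not, or belong to epithelial-like cells, which were not tested. For Icam1, Csf1, Cebpd and Birc3 the macrophage points lie nearest to 0 or above it, and for Birc2 the 4 classes lie close together.

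Macrophage-like cells depend on CSF1 and carry its receptor. In them 0 of the 10 genes passed in Tumor against DCIS with edgeR, where 6.32% of the 7835 genes tested did (2.36% higher and 3.96% lower). An unadjusted p under 0.05 was found for 2 of the 10 genes and for 25.9% of all genes, and with DESeq2 0 of the 10 and 5.73% of all genes passed. The median log2 fold change was -0.37, against 0.06 for all genes, and 8 of the 10 changes were negative. In both Tumor libraries 4 genes were lower than in both DCIS libraries and 1 was higher, as were 28.6% and 30.3% of all genes.

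Icam1 was at 87.7 and 78.4 CPM in Prepuberty macrophages, 68.9 and 55.9 CPM in DCIS, and 69.7 and 34.3 CPM in Tumor. Tumor and DCIS overlapped, with a log2 fold change of -0.26 and an interval of 2 SE from -1.04 to 0.53. Csf1 was low in every library, between 4.01 and 16.0 CPM, and slightly higher in Tumor (10.0 and 7.04 CPM) than in DCIS (4.01 and 6.50 CPM) with an interval of -0.54 to 2.05. These levels rest on 5 and 5 UMIs in DCIS and 25 and 16 UMIs in Tumor, and whether they came from free RNA was not tested. Cebpd was at 57.7 and 59.8 CPM in DCIS against 54.0 and 38.7 CPM in Tumor, lower without overlap with a log2 fold change of -0.33 (SE 0.34).

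Birc2 had the lowest p of the 10 genes in macrophages. It was at 10.6 and 19.6 CPM in Prepuberty, 31.3 and 28.6 CPM in DCIS, and 6.40 and 12.8 CPM in Tumor, a log2 fold change against DCIS of -1.63 (SE 0.48, adjusted p 0.0670). Birc3 was at 64.1 and 52.0 CPM in DCIS against 33.2 and 26.0 CPM in Tumor (log2 fold change -0.96, SE 0.37, adjusted p 0.130). In both cases Tumor was below DCIS without overlap. Tnfaip3 was at 191 and 72.6 CPM in Prepuberty, 121 and 81.9 CPM in DCIS, and 76.9 and 7.92 CPM in Tumor, also lower than DCIS without overlap, with a log2 fold change of -1.25 (SE 0.77, adjusted p 0.337) beside -1.23 (SE 1.11) in fibroblasts.

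Against Prepuberty, 0 of the 10 genes passed in macrophages with edgeR, where 5.83% of genes tested did (1.86% higher and 3.97% lower). An unadjusted p under 0.05 was found for 1 of them, Cebpd, and for 20.9% of all genes, and DESeq2 called 0 of them and 6.05% of all genes. Without Tumor 1 the count became 3 against Prepuberty (760 of all genes, against 457 with every library) and 1 against DCIS (912 of all genes, against 495), and without Tumor 2 it became 1 against DCIS (281 of all genes). The 7 neutrophil markers summed to 844 and 3320 CPM in Tumor macrophages against 71.5 to 398 CPM elsewhere, with 6 and 7 of the 7 detected in the Tumor libraries. Their part in these values was not tested.

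The difference in response between the classes was tested in 1 model over the 3 classes. Between macrophages and fibroblasts, 4 of the 10 genes differed in their change from DCIS to Tumor, where 6.69% of the 12385 genes in the model did. The change in macrophages minus that in fibroblasts was 4.19 on the log2 scale for Csf1 (SE 0.79, adjusted p 0.00848), 3.19 for Birc3 (SE 0.35, adjusted p 0.000496), 3.18 for Icam1 (SE 0.54, adjusted p 0.00514) and 1.60 for Cebpd (SE 0.41, adjusted p 0.0304). Nfkbia differed by 1.76 (SE 0.51) and did not pass (adjusted p 0.0541).

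Between endothelial cells and macrophages 1 of the 10 genes differed, Birc3, with a difference of -1.89 (SE 0.44, adjusted p 0.0370), where 2.83% of genes did. Between endothelial cells and fibroblasts 0 differed with edgeR, where 2.87% of genes did, with unadjusted p under 0.05 for Icam1, Birc3, Nfkbiz and Csf1, where 16.4% of all genes had one, and 0 calls by DESeq2, which called 6.09% of all genes. Without DCIS 1 or DCIS 2 the count between macrophages and fibroblasts fell to 1, Birc3, while that of all genes fell from 829 to 67 and 29. The count between endothelial cells and macrophages, beside 350 of all genes, was 0 without DCIS 1 (9 of all genes), DCIS 2 (23) or Tumor 1 (308), and 2 without Tumor 2 (273), Prepuberty 1 (460) or Prepuberty 2 (444).

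The step from Prepuberty to DCIS asked whether the genes rose with the early lesions. None passed with edgeR in fibroblasts, endothelium or macrophages, where 0%, 0% and 0.102% of genes passed. DESeq2 also called 0 of the 10, where it called 0.707%, 0.564% and 0.689% of all genes in the same order. An unadjusted p under 0.05 was found for 3 of the 10 genes in fibroblasts (9.92% of all genes), 0 in endothelium (10.9%) and 1 in macrophages (10.5%).

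In fibroblasts these were Birc2 (log2 fold change 1.42, SE 0.45), Birc3 (1.29, SE 0.37) and Icam1 (1.21, SE 0.40), each with an adjusted p of 0.493. Cebpd in macrophages went the other way (-0.82, SE 0.35, adjusted p 0.448). Of the 10 genes, 8 in fibroblasts, 4 in endothelium and 2 in macrophages were higher in DCIS without overlap, as were 23.7%, 25.6% and 23.4% of all genes tested. In macrophages 3 were lower without overlap, as were 20.9% of all genes. The epithelial levels of both states were among the values the choice of the genes rested on and are given as a description. There 6 of the 10 genes, and 28.9% of all genes, were higher in DCIS without overlap, with the largest log2 fold changes in Icam1 (1.37), Nfkbiz (1.25) and Csf1 (1.02).

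Genes at large differed between the 2 Tumor libraries, and some of the 10 genes did so too. Of 7212 genes tested in all 4 classes, 22.9% were higher in Tumor 1 than in Tumor 2 in every class and 19.3% lower in every class. Among the 10 genes, Cebpd, Nfkbia, Tnfaip3 and Nfkbiz were higher in every class and Birc2 lower. Beside these shares, the order is not read as particular to the 10 genes. Nfkbia was higher in Tumor 1 by 5.78-fold in epithelium, 5.64-fold in fibroblasts, 4.88-fold in endothelium and 4.24-fold in macrophages. Tnfaip3 was 2.50, 23.8, 4.39 and 9.70 times as high and Nfkbiz 1.54, 4.02, 4.24 and 6.73 times as high in Tumor 1, in the same order of classes. In Tumor 2 the Tnfaip3 levels rest on 14 UMIs in fibroblasts, 4 in endothelium and 18 in macrophages. The Nfkbiz level in Tumor 2 endothelium rests on 7 UMIs. Cebpd was 2.27, 1.75, 2.81 and 1.40 times as high. Icam1 did not share this order, with ratios of 0.57 in epithelium, 1.09 in fibroblasts, 4.26 in endothelium and 2.03 in macrophages.

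Birc2 was in Tumor 1 at 0.32 to 0.64 of its level in Tumor 2, with 6 and 7 UMIs in the endothelium of Tumor 1 and Tumor 2. Between the DCIS libraries the ratios of Nfkbia lay between 0.91 and 2.12. As each tumor is 1 library, these ratios have no test. Without Tumor 1, only the library with the lower Nfkbia was left in the state. The log2 fold changes of Nfkbia against DCIS were then -3.87 in fibroblasts and -3.29 in endothelium. With other single libraries left out they reached -1.40 and -0.94.

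A list of 10 early-response and heat-shock genes, which tissue dissociation can induce, also separated the tumors. Its summed level (TMM-scaled CPM) was 4055 in Tumor 1 and 1224 in Tumor 2 in epithelium, 4250 and 1486 in fibroblasts, 4724 and 3845 in endothelium and 3198 and 1247 in macrophages, with all 10 genes detected in each of these sums. In DCIS it was 3219 and 3574 in epithelium, 2527 and 2408 in fibroblasts, 7146 and 7552 in endothelium and 1348 and 1648 in macrophages. In endothelium both DCIS libraries were above both Tumor libraries in this sum. The median log2 fold change of the listed genes there, Tumor against DCIS, was 0.95, so sum and median differed in direction. In Prepuberty it was 1134 and 2516, 1033 and 2157, and 3314 and 6598 in epithelium, fibroblasts and endothelium. Of the 10 genes of this list, Dnajb1, Hspa1a and Hspa1b fell in Tumor against DCIS in endothelium, Hspa1b fell and Fosb rose in fibroblasts, and Fos and Fosb rose in macrophages. The labels describe 1 digestion protocol for glands and tumors and 1 kit version for all libraries, but according to the methods of the study tumors were dissociated with another kit and Tumor 2 was made with a later library kit. If these apply, they cannot be told apart from the Tumor state and from Tumor 2, and the part of dissociation in the values above was not tested.

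**Figure D4:**
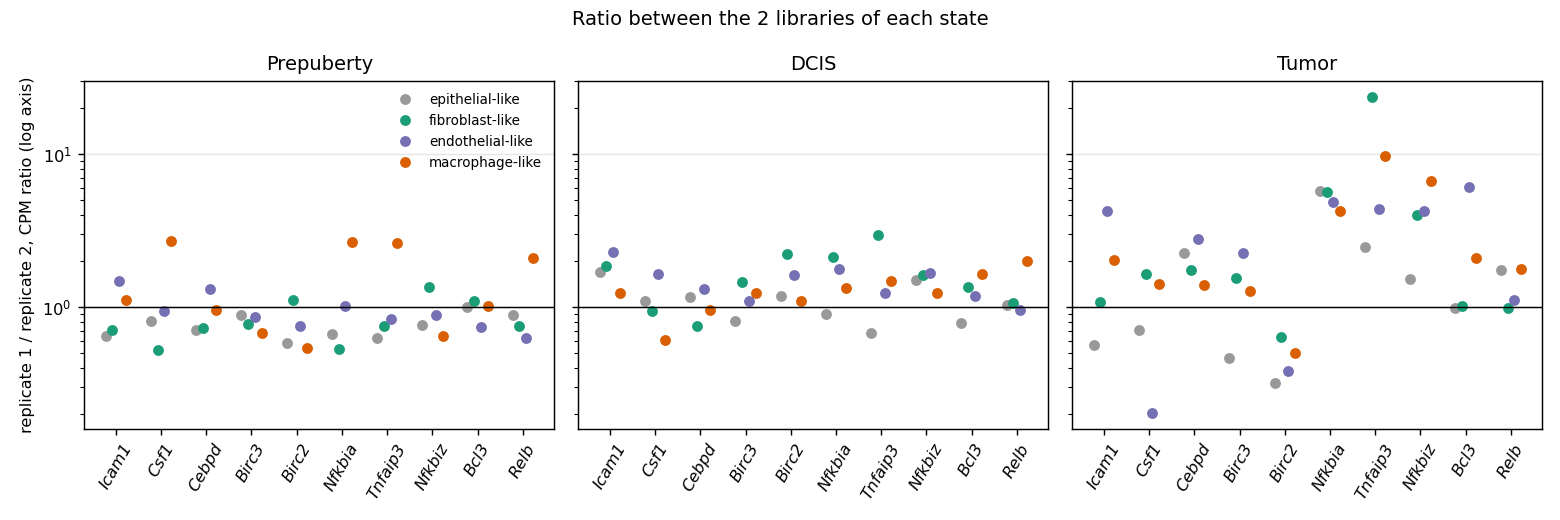
Ratio of the CPM in replicate 1 to that in replicate 2 of each state, for the 10 genes in the 4 cell classes (log axis; the line marks equal levels). In the Tumor panel Cebpd, Nfkbia, Tnfaip3 and Nfkbiz lie above 1 in every class and Birc2 below 1 in every class.

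Across the classes, without TMM scaling, Icam1 had its highest mean over the 6 libraries in endothelium (181 CPM, range 38.2 to 341), followed by fibroblasts (102 CPM, range 22.4 to 239), epithelium (71.9 CPM, range 5.95 to 186) and macrophages (64.5 CPM, range 48.6 to 83.1). All neighbors in this order overlapped, and the order differed between the states. In DCIS the means were 254 CPM in endothelium, 185 CPM in fibroblasts, 145 CPM in epithelium and 52.2 CPM in macrophages, and in Tumor they were 85.4 CPM in endothelium, 63.7 CPM in macrophages, 24.9 CPM in fibroblasts and 9.64 CPM in epithelium. Csf1 was highest in fibroblasts (275 CPM, range 51.3 to 531) and lowest in macrophages (8.28 CPM, range 3.24 to 13.2), and these ranges did not overlap. Tnfaip3 was highest in macrophages (83.4 CPM, range 11.7 to 158) and Cebpd in epithelium (436 CPM, range 111 to 805).

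Over the 24 sums of 4 classes and 6 libraries, the 5 genes whose log2 CPM followed Icam1 most closely, among 8127 genes with a mean of at least 10 CPM, were Casp4 (Pearson r 0.81), Birc3 (0.77), Znrf1 (0.77), Mvp (0.77) and Csf3 (0.74). For Nfkbia they were Map3k8 (0.81), Zfp36 (0.80), Xist (0.80), Rnf114 (0.77) and Psenen (0.76). The sums of 1 library share its depth and handling, so these correlations are a description.

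Of the other genes of the pathway, 92 were listed by role, from ligands and receptors through adaptors, kinases and subunits to inhibitors and targets. In fibroblasts, 23 of the 82 tested fell and 2 rose in Tumor against DCIS, with a median log2 fold change of -0.85; of all genes tested 5.59% fell and 7.96% rose, with a median of 0.13. The falls included 9 of the 19 tested adhesion and secreted targets, 4 of the 6 inhibitors, 2 of the 11 receptors and 1 of the 14 adaptors. Csf3, which encodes the neutrophil growth factor G-CSF, fell from 139 and 278 CPM in DCIS to 0.277 and 0.392 CPM in Tumor (adjusted p 0.00511), so its Tumor level rests on few UMIs. The log2 fold change was -8.72 (SE 0.84) for the acute-phase protein gene Saa3, -4.43 (SE 0.38) for the mitochondrial superoxide dismutase gene Sod2 and -3.46 (SE 0.42) for Irak3, a brake on interleukin-1 receptor signaling.

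The 2 pathway genes that rose in Tumor fibroblasts were a ligand and a receptor of the tumor necrosis factor family. Tnfsf11, which encodes RANKL, was at 3.02 and 1.44 CPM in DCIS against 10.5 and 72.7 CPM in Tumor (log2 fold change 4.29, SE 0.93, adjusted p 0.0270). Tnfrsf12a, the receptor for TWEAK, was at 157 and 124 CPM in DCIS against 516 and 294 CPM in Tumor (1.53, SE 0.40, adjusted p 0.0444). In both genes the Tumor libraries lay above DCIS without overlap.

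In endothelium 21 of the 79 tested fell and 2 rose in Tumor against DCIS, with a median of -0.95; of all genes 6.23% fell and 6.98% rose, with a median of -0.02. The falls held 10 of the 17 adhesion and secreted targets and 4 of the 6 survival targets. The log2 fold change was -4.42 (SE 0.44) for the chemokine gene Ccl5, -4.40 (SE 0.53) for the adaptor gene Traf1, -2.56 (SE 0.34) for the inhibitor gene Tnip1 and -2.26 (SE 0.32) for Sod2, with adjusted p from 0.00205 to 0.00499. Endothelial Ccl5 was at 95.6 and 91.4 CPM in DCIS against 5.05 and 2.81 CPM in Tumor, with 4 and 1 UMIs in Tumor. Macrophages of the same DCIS libraries held Ccl5 at 24695 and 25975 CPM and the 9 macrophage markers at 24869 and 29578 CPM, while the DCIS endothelial sums held those markers at 131 and 100.2 CPM. Whether the Ccl5 UMIs in endothelium came from macrophages or from free RNA was not tested. The receptor gene Cd40 and the interferon-induced chemokine gene Cxcl10 rose, by 3.21 (SE 0.81, adjusted p 0.0350) and 2.50 (SE 0.68, adjusted p 0.0441).

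In macrophages, where none of the 10 genes passed, 11 of the 79 other pathway genes tested fell and 3 rose in Tumor against DCIS, with a median of -0.57; of all genes 3.96% fell and 2.36% rose, with a median of 0.06. The neutrophil-attracting chemokine gene Cxcl5 fell from 48.9 and 146 CPM to 0 and 0.44 CPM (adjusted p 0.00183). In fibroblasts Cxcl5 was at 1006 and 1695 CPM in DCIS against 19.4 and 59.1 CPM in Tumor, and Saa3 at 2687 and 8533 CPM against 8.05 and 18.1 CPM, and whether their UMIs in macrophages came from free RNA was not tested. The log2 fold change was -6.58 (SE 0.81) for Saa3, -3.01 (SE 0.45) for the receptor gene Tnfrsf1b and -8.46 (SE 1.30) for Ccl5, with adjusted p from 0.00332 to 0.00774. Ccl5 was at 24695 and 25975 CPM in DCIS macrophages and at 138 and 5.28 CPM in Tumor macrophages. Ccl5 is also a gene of T cells, and the 7 T-cell markers summed to 254 and 160 CPM in DCIS macrophages against 85.7 and 68.7 CPM in Tumor (7 and 4, and 7 and 7 of them detected). Without TMM scaling, Ccl5 was at 19993 and 22585 CPM in DCIS macrophages and at 2096 and 1448 CPM in the T-cell-like sums of the same libraries, which held 239 and 80 Ccl5 UMIs. The lymphotoxin gene Ltb rose by 3.0 (SE 0.54), the protease gene Mmp9 by 6.38 (SE 1.57) and the adaptor gene Myd88 by 1.64 (SE 0.43), and Mmp9 was at 15.2 CPM in Tumor 1 but 1017 CPM in Tumor 2. The neutrophil markers in the same sums were at 398 and 71.5 CPM in DCIS and at 844 and 3320 CPM in Tumor, and the 6 B-cell markers at 20.03 and 9.10 CPM in DCIS and at 70.9 and 22.4 CPM in Tumor (2 and 2, and 5 and 3 of them detected). Their part in these rises was not tested.

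Against Prepuberty, 12 of 82 pathway genes fell and 4 rose in Tumor fibroblasts, 21 of 79 fell and none rose in endothelium, and 15 of 79 fell and 1 rose in macrophages; of all genes 2.58%, 4.78% and 3.97% fell and 6.14%, 6.94% and 1.86% rose. Saa3 fell in all 3 classes, with log2 fold changes of -8.61 (SE 0.84), -7.50 (SE 1.12) and -7.71 (SE 0.85); it had 0 UMIs in the Tumor 2 endothelium. The prostaglandin synthase gene Ptgs2 rose in fibroblasts by 1.76 (SE 0.32, adjusted p 0.0194), with 33.3 and 25.4 CPM in Prepuberty, 219 and 234 CPM in DCIS and 106 and 92.6 CPM in Tumor, and so was highest in DCIS. In epithelium the 87 measured pathway genes had a median log2 fold change of -0.43 for Tumor against DCIS and -0.48 for Tumor against Prepuberty.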

How the data were processed

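Single-cell RNA was measured in 6 libraries. Per the labels and file headers, the authors made gene-by-cell tables of UMI counts with Cell Ranger 3.0.2 against mm10; the deposited counts were not normalized. Cells with at least 200 genes and under 10% mitochondrial UMIs were kept, and the cells with the highest Scrublet scores (0.8% per 1000 cells, 707 in all) were removed as doublets; the automatic Scrublet threshold marked only 31. At most 34 barcodes were shared between a pair of libraries. Cells were integrated and clustered with Seurat 5.3.0 (2000 variable genes, 20 dimensions, resolution 0.8), giving 23 clusters named from markers, of which 3 stayed unnamed and were left out (up to 19.0% of the cells of a Tumor library).

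Counts were summed per class and library and tested with edgeR 4.0.16 (quasi-likelihood F test, TMM, filterByExpr, all 6 libraries, two-sided) with Benjamini-Hochberg adjustment over all genes tested and a threshold of 0.05; all 10 genes passed the filter in each class. The 10 genes were not tested in epithelium. The interaction model held library, class and class by state. The alternatives were DESeq2 1.42.0, its size factors, no filter, only the compared libraries, a replicate block, each library left out, a 5% mitochondrial limit, classes without integration, cells without a T antigen UMI and sums thinned to 1 depth. SEs were derived from the F statistic. The model was tested on simulated data.

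The 10 genes and the lists were chosen with earlier results of these data known. Of other pathway genes, up to 4 that rose and 4 that fell with the lowest adjusted p were named per class and comparison. Nothing in the labels says that the 2 libraries of a state come from separate animals, so p-values measure only the spread between these libraries. Class sums ranged from 287801 to 44560406 UMIs. Gene positions are those of GENCODE on GRCm38, the same build. An exact test of 2 against 2 libraries cannot go below p = 0.333, so none was used.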

Additional observations from a re-analysis of the deposited data

Results flagged for a closer look

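The change from DCIS to Tumor differed between cell classes for 4 of the 10 genes, by a test of the difference itself. In macrophage-like minus fibroblast-like cells the difference in log2 fold change was 4.19 for Csf1, 3.19 for Birc3, 3.18 for Icam1 and 1.60 for Cebpd. Csf1, for example, had a log2 fold change of 0.76 in macrophages, on 5 and 5 UMIs in DCIS and 25 and 16 UMIs in Tumor, and -3.35 in fibroblasts. In endothelial-like minus macrophage-like cells the difference was -1.89 for Birc3. The Birc3 difference between macrophages and fibroblasts passed in all 13 alternatives run for it, the Icam1 difference in 11, the Csf1 difference in 10 and the Cebpd difference in 7, and the Birc3 difference between endothelial cells and macrophages in 6. With 2 libraries in a state, no library could be examined as an outlier within its group.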

How the results depend on the processing

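The median log2 fold change of the 10 genes in epithelium stayed negative in every alternative for Tumor; it was -2.20 for Tumor against DCIS with a replicate block, and ranged from -2.16 to -1.75 with single libraries left out, and from -1.86 to -1.24 for Tumor against Prepuberty. For DCIS against Prepuberty it was 0.48, with 0.68 without integration and 0.35 to 0.78 with single libraries left out. Counts of genes past the threshold moved as follows. With classes made without integration, the counts were 4 and 0 in fibroblasts (545 and 292 of all genes), 0 and 0 in endothelium (65 and 59 of all genes; Tumor against DCIS and against Prepuberty), 1 in macrophages against Prepuberty (484 of all genes) and 0 between endothelial cells and macrophages (369). Without the filter on low counts they were 1 in fibroblasts for DCIS against Prepuberty, where 362 of all genes then passed and none had, 6 and 8 in endothelium (2323 and 2169 of all genes), 1 and 1 in macrophages (1152 and 1002), 2 between endothelial cells and fibroblasts (839) and 6 between endothelial cells and macrophages (846). The endothelial count against Prepuberty was 1 with DESeq2 size factors (1213 of all genes), without T antigen cells (1153), with only the 4 libraries compared (1021) and with thinned sums (545). A 5% mitochondrial limit gave 1 in macrophages against DCIS (566 of all genes). Thinned sums gave 2 between macrophages and fibroblasts (193 of all genes) and 0 between endothelial cells and macrophages (139), and DESeq2 gave 3 for the latter (927).

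With single libraries left out, where a lone library is assumed to vary like the other groups, the counts ranged from 2 to 8 (against DCIS) and 0 to 5 (against Prepuberty) in fibroblasts, 1 to 6 and 1 to 4 in endothelium, 0 to 1 and 0 to 3 in macrophages, 1 to 5 between macrophages and fibroblasts, 0 to 2 between endothelial cells and macrophages and 0 to 1 between endothelial cells and fibroblasts. The counts of all genes in these fits ranged from 28 to 2089 and 58 to 1389 in fibroblasts, 423 to 1143 and 553 to 983 in endothelium, 40 to 912 and 200 to 760 in macrophages, and 29 to 1017, 9 to 460 and 51 to 455 between the classes in that order. For DCIS against Prepuberty the count was 0 of the 10 genes in fibroblasts, endothelium and macrophages, beside 0, 0 to 13 and 0 to 47 of all genes.

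Direction reversed, for Tumor against DCIS, in genes that had not passed. Nfkbiz in fibroblasts was -0.10 with the replicate block. Tnfaip3 in endothelium was 0.27 without integration, and thinned sums gave 0.023 for Cebpd and 0.27 for Bcl3 in macrophages. With single libraries left out, the values ranged from -1.25 to 0.73 for Nfkbiz in fibroblasts, from -1.89 to 0.30 for Tnfaip3 in endothelium and, in macrophages, from -0.88 to 0.17 for Icam1, -1.84 to 0.28 for Nfkbia, -1.28 to 1.49 for Nfkbiz and -0.94 to 0.17 for Bcl3. The causes were not tested. Replicate numbers name only libraries: deviations of same-numbered libraries correlated at -0.073 to 0.357. Against DCIS the block left the count of 7 in fibroblasts and gave 4 in endothelium. The counts of all genes rose with it, from 1647 to 2284 in fibroblasts and from 1383 to 1662 in endothelium. The endothelial Tumor sums held 784382 and 287801 UMIs from 79 and 35 cells.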
